A study of Mus musculus with 745 samples.

Results

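Efnb2, Ephb4, Efna1, Efna5, Unc5b, Sema3g, Flrt2, Plxnd1 and Robo4 are 9 of the 20607 gene symbols in the count table. They encode ephrin ligands and an Eph receptor, a semaphorin, a plexin, a netrin receptor, and FLRT and Robo family proteins. They were taken by symbol, and all 9 had a row. They were measured in 745 single endothelial cells from the brains of 3-month-old mice, dissociated and sorted by FACS, with each cell its own sample. No genotype, strain or treatment is given, every cell is labelled young, and the sources used here do not name the markers of the sort. The titles put the cells in 3 sets, Young1, Young2 and AY_Y3, which held 30.2%, 34.6% and 35.2% of the cells. Whether a set stands for 1 mouse, several mice or a plate is not in the labels, so an SD or a p-value over sets measures only the spread between these sets, which may be technical.

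Ephrins are membrane-bound ligands of Eph receptors, and ephrin-B2 (Efnb2) on arterial endothelium and its receptor EphB4 (Ephb4) on venous endothelium are the classic pair that keeps arteries and veins apart in the embryo. Semaphorins signal through plexins and neuropilins, netrins through Unc5 and DCC receptors, Slits through Robo receptors, and FLRT proteins through Unc5 receptors and latrophilins. All of these families guide axons as well as growing vessels. Whether ephrin-B2 and EphB4 transcripts exclude each other in single adult brain endothelial cells, and how the other guidance genes lie from artery to vein, are the questions addressed here.

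Cells were sorted into classes by 6 markers, none of them among the guidance genes listed here. The markers were Bmx and Gkn3 for arteries, Cxcl12 and Rgcc for capillaries, and Nr2f2 and Il1r1 for veins. Each was taken as present at 10 CPM or more (CPM, the counts of a gene scaled to a common total per cell). A cell with an arterial marker and no venous one was an arterial-marker cell, one with a venous and no arterial marker a venous-marker cell, and one with only capillary markers a capillary-marker cell. Before this, 110 cells were left out because the summed markers of another cell type exceeded 2000 CPM in them, 79 of them by pericyte markers. The 635 cells kept divided into arterial-marker (18.3%), capillary-marker (57.6%, 366 cells) and venous-marker cells (19.8%), with 18 cells that held arterial and venous markers together (called mixed) and 9 with none of the 6 (called unmarked). By set, in the order Young1, Young2 and AY_Y3 used throughout, there were 23, 46 and 47 arterial-marker cells and 39, 46 and 41 venous-marker cells, while capillary-marker cells made up 66%, 52.4% and 55.3% of the cells kept. These names describe the markers a cell carried and are not authors' annotations.

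Sema3g, Efnb2 and Unc5b lay on the arterial side, Flrt2 lay on the venous side, and Ephb4, Efna1, Plxnd1 and Robo4 had overlapping levels in all classes. Efna5 was found in 8 cells, all of them arterial-marker cells. Efnb2 and Ephb4 were not mutually exclusive: 33 cells had counts of both, against 30.5 from the product of their shares. Sema3g alone passed the test across all genes, between arterial-marker and venous-marker cells.

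The windows around the transcription starts of the 4 tested genes whose levels did not overlap between arterial-marker and venous-marker cells are shown because Sema3g, Efnb2 and Unc5b were found together and Flrt2 apart from them. They are the RefSeq windows of GRCm38.p6, 250 bases before and 50 from the start on, written 5′ to 3′ on the gene's own strand. The window of Sema3g is chr14:31217623-31217922 on the plus strand, that of Efnb2 chr8:8661193-8661492 on the minus strand, that of Unc5b chr10:60831532-60831831 on the minus strand and that of Flrt2 chr12:95691976-95692275 on the plus strand. Capitals mark each match to TGGGAA (RBPJ, the Notch effector), CCGGAA (ETS), TGTTTAC (forkhead), ATTGTT (SOX), GGGTGGG (KLF) or AGGTCA (nuclear receptors), read on both strands.
Sema3g: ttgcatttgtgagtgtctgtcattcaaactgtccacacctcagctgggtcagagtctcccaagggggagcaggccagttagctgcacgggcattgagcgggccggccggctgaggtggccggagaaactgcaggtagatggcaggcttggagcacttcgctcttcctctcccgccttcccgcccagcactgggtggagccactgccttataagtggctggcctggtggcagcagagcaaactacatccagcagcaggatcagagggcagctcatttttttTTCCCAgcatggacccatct
Efnb2: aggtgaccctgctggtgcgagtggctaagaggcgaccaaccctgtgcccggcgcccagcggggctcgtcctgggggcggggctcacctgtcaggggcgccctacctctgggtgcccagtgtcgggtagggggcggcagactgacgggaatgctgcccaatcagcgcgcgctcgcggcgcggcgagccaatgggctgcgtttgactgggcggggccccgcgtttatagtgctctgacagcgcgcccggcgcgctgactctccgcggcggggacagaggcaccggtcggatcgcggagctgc
Unc5b: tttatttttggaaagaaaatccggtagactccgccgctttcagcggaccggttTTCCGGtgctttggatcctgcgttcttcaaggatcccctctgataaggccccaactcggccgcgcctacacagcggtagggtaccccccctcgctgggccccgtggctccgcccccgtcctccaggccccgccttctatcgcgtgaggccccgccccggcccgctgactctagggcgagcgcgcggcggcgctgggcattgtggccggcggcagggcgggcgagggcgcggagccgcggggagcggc
Flrt2: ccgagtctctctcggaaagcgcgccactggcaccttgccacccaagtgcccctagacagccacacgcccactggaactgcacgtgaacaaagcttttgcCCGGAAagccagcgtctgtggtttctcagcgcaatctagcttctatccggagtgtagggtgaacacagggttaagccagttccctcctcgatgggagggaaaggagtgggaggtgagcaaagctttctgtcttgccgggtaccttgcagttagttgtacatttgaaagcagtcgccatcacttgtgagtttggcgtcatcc

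The Sema3g window held a single match, TGGGAA on the opposite strand, beginning 31 bases into the transcript. The Unc5b window held CCGGAA on the opposite strand at position −197 from the start, and the Flrt2 window CCGGAA on the gene's strand at position −151. The Efnb2 window held none of the 6 letter strings. Each of these matches is common: of 32851 windows of this length, 25.6% hold TGGGAA, 14.9% CCGGAA, 3.65% TGTTTAC, 10.7% ATTGTT, 17.5% GGGTGGG and 16.3% AGGTCA. All 9 genes matched a window, Efna1 with a pair of windows. Of the others, Plxnd1 held AGGTCA, Robo4 held AGGTCA and GGGTGGG, 1 of the Efna1 windows held GGGTGGG, and those of Ephb4 and Efna5 held none. No matches overlapped. The Efnb2 and Unc5b windows were rich in G and C, at 72.3% and 69.7%, against 58.7% for Sema3g, 55.3% for Flrt2 and a median of 52.7% over all windows. A match is a string of letters and no evidence of binding, and the lack of one says nothing about the factor.

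Counts per cell ran from 52819 to 2421434, and the sets differed in depth, with medians of 757949, 713031 and 411397 counts. Of 10 endothelial markers, Ly6c1 had a count in 99.8% of the cells kept, Cldn5 in 99.1%, Flt1 in 98.9%, Esam in 92.4% and Pecam1 in 89.1%, while Cdh5, Tek, Tie1, Kdr and Erg were found in 75.6%, 74.5%, 69.9%, 63.9% and 40.2%. The 10 endothelial markers summed to 17801 to 20064.5 CPM in arterial-marker, 16718 to 19060 in capillary-marker and 15972 to 18253 in venous-marker cells of the 3 sets. Pericyte markers summed to 39.5 to 122.3 CPM over 3 of 10 genes with a count in arterial-marker cells, 104.1 to 226.8 over 9 in capillary-marker cells and 139.1 to 314.5 over 6 in venous-marker cells. Vtn and Kcnj8 were at 0 in arterial-marker cells, and Pdgfrb and Kcnj8 at 0 in venous-marker cells. The 110 cells left out had 7089 to 8149 CPM of pericyte markers beside 15405 to 15988 CPM of endothelial ones. Cells of the classes also differed in genes detected: thinned to 50000 counts, the set medians were 1653, 1894 and 2022 genes in arterial-marker cells, 1426, 1477 and 1683 in capillary-marker cells and 2185, 2142 and 2265 in venous-marker cells.

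Most cells carried counts of a few of the 9 genes. No count of any was found in 60 of the 635 cells, 1 gene was found in 25.2% of them, 2 in 28.8% and 3 in 20.5%, and the most in a single cell was 7. The mean number per cell was 2.78, 3.13 and 2.89 in arterial-marker cells, 1.82, 1.91 and 1.94 in capillary-marker cells and 2.05, 2.04 and 2.27 in venous-marker cells. Shares of cells with a count are given below as the mean ± SD of the 3 sets. They are not compared between genes, since transcript length and depth set them, and since a count in a cell is a read and not a molecule.

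**Figure D1:**
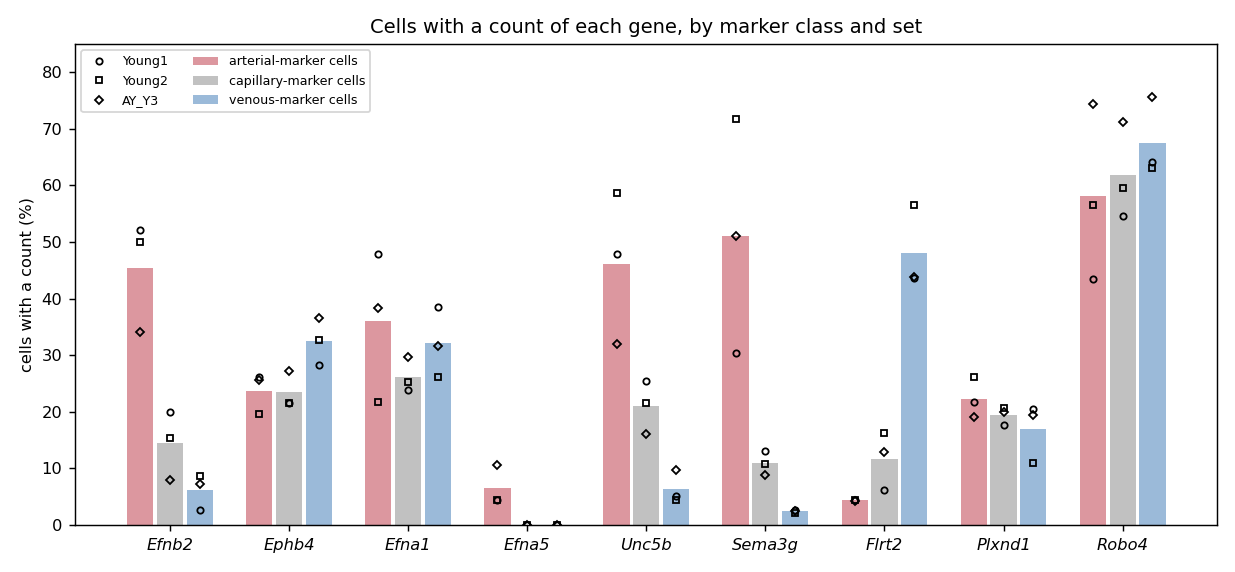
The share of cells with a count of each gene (y axis, percent) in arterial-marker (red), capillary-marker (grey) and venous-marker (blue) cells; bars are means of 3 sets and points the sets. Efnb2, Unc5b and Sema3g are found most often in arterial-marker cells and Flrt2 in venous-marker cells, while the points of Robo4, Plxnd1 and Efna1 overlap between classes.

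Between arterial-marker and venous-marker cells, 1 of the 8 genes that could be tested passed edgeR's quasi-likelihood test (Sema3g; Benjamini-Hochberg adjusted p under 0.05 over 8930 genes, with the set as a block), against 1.77% of all genes, and 4 of the 8 had an unadjusted p under 0.05, against 11.7% of all genes. The sums of 4 of the 8 did not overlap between these classes over the 3 sets, against 17.3% of all genes. Between arterial-marker and capillary-marker cells, 0 of 8 passed the edgeR test, against 0.291% of all genes, and 1 of 8 had an unadjusted p under 0.05, against 7.51% of all genes. DESeq2 called Sema3g there and limma Efnb2, Unc5b and Sema3g. In that comparison the sums of 1 of 8 (Sema3g) did not overlap, against 15.3% of all genes. Between venous-marker and capillary-marker cells, 0 of 8 passed, against 0.0784% of all genes, and 3 of 8 had an unadjusted p under 0.05, against 4.67% of all genes. DESeq2 called Efnb2, Unc5b and Sema3g there and limma Flrt2. In that comparison the sums of 4 of 8 did not overlap, against 13% of all genes. The median log2 fold change of the 8 genes was 0.66 for arterial-marker over venous-marker cells, against −0.05 over all genes tested, and 0.04 against −0.07 for arterial-marker over capillary-marker cells. For venous-marker over capillary-marker cells it was −0.66, against −0.02 over all genes. The 3 comparisons share cells, so they are given side by side and are not independent of each other.

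**Figure D2:**
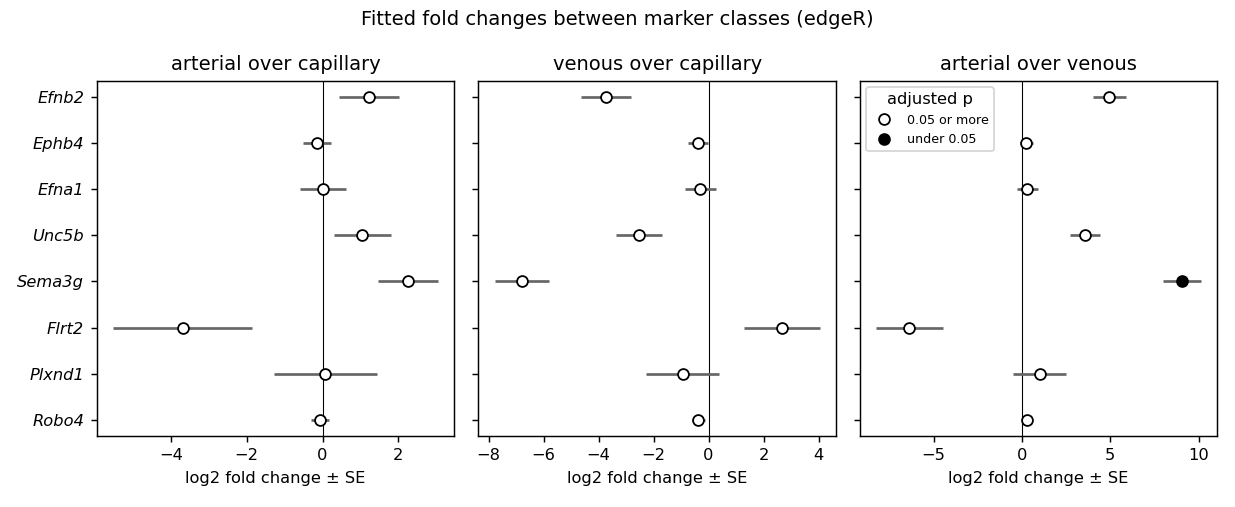
Fitted log2 fold changes (x axis, ± SE) of the 8 tested genes for arterial over capillary, venous over capillary and arterial over venous marker classes, from edgeR on 9 sums of counts; filled points have an adjusted p under 0.05. Sema3g in the arterial over venous panel, at 9.06, is the filled point, and Efnb2, Unc5b and Flrt2 lie far from 0 in the same panel without passing.

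Efnb2, the ligand ephrin-B2, was found in 18.3% of 635 cells (exact 95% interval 15.3 to 21.5, which covers counting error only, as do all such intervals here). It was found in 40, 45 and 31 cells of the 3 sets. Cells with a count held from 0.518 to 2550 CPM, with a median of 137.6 CPM. The share of cells was 45.4 ± 9.90% in arterial-marker cells, 14.4 ± 6.05% in capillary-marker cells and 6.19 ± 3.22% in venous-marker cells (SD, n = 3 sets), and thinned to 50000 counts it was 34.6 ± 6.09%, 12% ± 4.08 and 3.93 ± 1.21%. With counts summed per set and class, Efnb2 was at 255.1, 133.2 and 64.7 CPM in arterial-marker cells, against 7.57, 0.662 and 8.30 CPM in venous-marker cells. Every set was higher in arterial-marker cells and the groups did not overlap, with Young1 the highest and AY_Y3 the lowest of the arterial sums.

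The fitted log2 fold change of Efnb2, arterial over venous, was 4.96 ± 0.96 (SE), with an edgeR adjusted p of 0.0553, and the adjusted p ran from 9.78e-12 to 0.300 over 13 alternative settings, past the threshold in 6. Without the set as a block it was 0.0373. The venous-marker sums rested on few cells: the single positive cell of Young1 held all 282 counts there. In capillary-marker cells Efnb2 was at 102.96, 52.9 and 41.9 CPM. Arterial-marker cells were above these in 3 of 3 sets but overlapped with them between sets (log2 fold change 1.23 ± 0.79, edgeR adjusted p = 0.826; 0.00456 to 0.973 over alternatives). Venous-marker cells lay below every capillary-marker sum (log2 fold change −3.72 ± 0.90, edgeR adjusted p = 0.417; 5.49e-06 to 1 over alternatives, past the threshold with DESeq2).

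Ephb4, the receptor of ephrin-B2, was found in 26.3% of 635 cells (exact 95% interval 22.9 to 29.9), at 0.987 to 2842 CPM and a median of 181.4 CPM in those cells. Its share was 23.7 ± 3.62% in arterial-marker, 23.5 ± 3.24% in capillary-marker and 32.5 ± 4.19% in venous-marker cells (SD, n = 3 sets). Thinned, these shares were 18.7 ± 4.89%, 18.8 ± 1.86% and 29.2 ± 5.63%. The summed level was 66.1, 66.9 and 84.9 CPM in arterial-marker cells, against 50.1, 82.3 and 58.6 CPM in venous-marker cells. Capillary-marker cells had 93.2, 77.2 and 77.8 CPM. The levels overlapped between all classes, and the shares did not: venous-marker cells had a count in 28.2%, 32.6% and 36.6% of cells, above every arterial-marker (19.6% to 26.1%) and capillary-marker set (21.5% to 27.2%). Venous-marker cells also had the most genes detected per cell, and the part of this in the share was not tested. How many of all genes had shares set apart in this way was not counted, so this is not read as particular to Ephb4. Single cells weighed on the arterial level: 1 cell gave 55.8% of the counts in Young1 and another 49.3% in Young2. Without the top cell of each set the sums were 30.8, 35.2 and 63.4 CPM in arterial-marker cells, against 39.1, 69.5 and 48.9 CPM in venous-marker cells, so arterial-marker cells were then the lower in 2 of 3 sets.

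For Ephb4 the log2 fold change was 0.24 ± 0.37 for arterial over venous cells (edgeR adjusted p = 0.870; 0.353 to 0.979 over alternatives). It was −0.39 ± 0.37 for venous over capillary cells (edgeR adjusted p = 1; 0.261 to 1) and −0.15 ± 0.37 for arterial over capillary cells (edgeR adjusted p = 0.972; 0.920 to 0.999). The direction of all 3 turned with limma on mean log2(CPM + 1), a scale that weights the share of cells with a count more than the level: there the values were −0.57, 0.62 and 0.05, while the median over all genes moved to −0.15, 0.36 and 0.18. Among cells with both venous markers, 21 of 48 had an Ephb4 count, against 20 of 78 with 1 venous marker and 86 of 366 capillary-marker cells. In AY_Y3 the step with 1 venous marker was at 5.91 CPM, well below the 117.4 CPM of the step with both. Of the 18 mixed cells, 11 had an Ephb4 count. Ephb4 overlaps Zan on the other strand, but Zan had a count in 5 of the 635 cells, 1 of them with Ephb4. Efnb2 overlaps 2 other genes with a row in the table, found in 8 and 2 cells, 3 and 0 of them with Efnb2.

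Counts of Efnb2 and Ephb4 in the same cell were found in 11 cells of Young1, 13 of Young2 and 9 of AY_Y3. The product of the shares of each gene gives 9.34, 11.25 and 9.33 cells, if the genes were found independently of each other. The ratio of the cells observed to that product was 1.18, 1.16 and 0.965, with a mean of 1.10 ± 0.117 (SD, n = 3 sets). With 3 sets no two-sided exact test on this ratio can give a p under 0.25, so none is given. Among cells with an Efnb2 count, 27.5%, 28.9% and 29% had an Ephb4 count, and among cells without one, 22.3%, 24% and 30.3%. In Young1 and Young2 the ratio was above 1 and in AY_Y3 below it, so the sets gave neither exclusion nor a joint excess beyond their spread.

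Depth matters for a count of joint detection, and cells with both genes were deeper, with a median of 852607 counts, against 714101 with Efnb2 alone, 616797 with Ephb4 alone and 554430 with neither. Thinned to 50000 counts, 20 cells had both, against 20.1 from the product, and the ratios were 1.10, 0.876 and 1.07. Requiring 10 CPM of each gene gave a mean ratio of 1.08 ± 0.246. The 33 cells with both comprised 11 arterial-marker, 15 capillary-marker, 4 venous-marker and 3 mixed cells. Their median of summed pericyte markers was 0 CPM, as it was for cells with either gene alone. Within classes, the cells with both numbered 11 against 11.9 from the product in arterial-marker cells, 15 against 12.5 in capillary-marker cells and 4 against 2.60 in venous-marker cells. The 4 venous-marker cells were all in Young2, and Efnb2 had 25 counts in them, at 0.518 to 13.1 CPM. At 10 CPM or more of each gene, 22 cells had both, against 20.4 from the product. Within classes they then numbered 6 against 7.40 in arterial-marker, 12 against 8.73 in capillary-marker and 1 against 1.14 in venous-marker cells.

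Median levels were lower in the cells with both genes, a difference that was not tested. Efnb2 had a median of 57.2 CPM (0.518 to 1110) in the 33 cells with both, against 147.7 CPM (0.847 to 2550) in the 83 with Efnb2 alone. Ephb4 had a median of 139.1 CPM (1.17 to 1776) in cells with both, against 182.8 CPM (0.987 to 2842) in those with Ephb4 alone. Spearman's rho between the 2 genes over cells was 0.04, 0.02 and 0.02 in the 3 sets, which in counts this sparse is no relation.

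**Figure D3:**
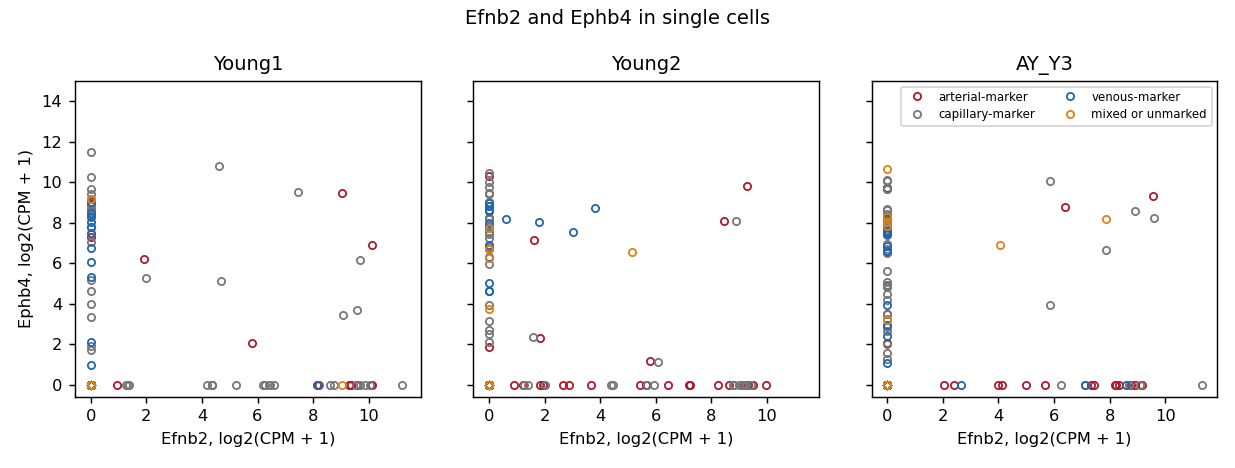
Efnb2 (x axis) against Ephb4 (y axis), both as log2(CPM + 1), in each cell of Young1, Young2 and AY_Y3; red points are arterial-marker, grey capillary-marker, blue venous-marker and orange mixed or unmarked cells, and cells without a count lie at 0. Points off both axes are the 11, 13 and 9 cells with counts of both genes, and they include every class of colour.

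Efna1 and Efna5 are ephrin-A ligands, which are anchored to the membrane by a lipid and bind mainly EphA receptors. Efna1 was found in 29.4% of 635 cells (exact 95% interval 25.9 to 33.2), with a median of 368 CPM in those cells. Its summed level was 357, 67.6 and 89.3 CPM in arterial-marker cells, against 189.9, 116.2 and 71.3 CPM in venous-marker cells. Capillary-marker cells had 95.1, 139.9 and 155.5 CPM. Young1 was the highest set in arterial-marker and venous-marker cells and the lowest in capillary-marker cells, so no class stood apart. The log2 fold change was 0.31 ± 0.58 for arterial over venous, 0.02 ± 0.61 for arterial over capillary and −0.29 ± 0.58 for venous over capillary cells (edgeR adjusted p = 0.90, 0.999 and 1; no alternative was past the threshold). Leaving out Young1 turned the first 2, to −0.25 and −0.90, and leaving out AY_Y3 turned the last, to 0.20.

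Efna5 was found in 1, 2 and 5 cells of the 3 sets, 8 in all (1.26%, exact 95% interval 0.545 to 2.47), and each was an arterial-marker cell. These cells held 129.96 to 731 CPM, with a median of 394 CPM, and all 8 still had a count when thinned. At such read levels thinning could hardly remove a count. A count is a read and not a molecule, so neither value shows how many transcripts were captured. Whether Efna5 lay near the limit of detection was therefore not tested. Efna5 had 1599 counts in 8 of the arterial-marker cells and 0 counts in 366 capillary-marker cells, which allows a share of up to 0.820% (3 of these cells; the exact 95% interval reaches 1.0%). It had 0 counts in the venous-marker cells, which allows up to 2.38% by the same rule and 2.89% by the exact interval. Its level over all arterial-marker cells was 18.8 CPM, with 18.9, 12.6 and 27.9 CPM in the 3 sets, against 0 in every venous-marker and capillary-marker sum. With so few cells the gene fell to the filter for low counts and was not in the main test, and without the filter its edgeR adjusted p was 0.830 for arterial over capillary and 0.568 for arterial over venous cells. Among cells with both arterial markers 4 of 36 had an Efna5 count, against 4 of 80 with 1, and 3 of the 110 cells left out had one.

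Sema3g, a secreted class 3 semaphorin known from arterial endothelium in mice, was found in 18% of 635 cells (exact 95% interval 15 to 21.2), with a median of 82.5 CPM in those cells. Its share was 51.1 ± 20.7% in arterial-marker cells, 10.9 ± 2.14% in capillary-marker cells and 2.39 ± 0.199% in venous-marker cells (SD, n = 3 sets), and thinned 40.3 ± 12.6%, 9.0 ± 1.0% and 1.67 ± 1.45%. Its summed level was 95.4, 92.8 and 56.9 CPM in arterial-marker cells, against 0.322, 0.0265 and 0.223 CPM in venous-marker cells. The venous level rested on 17 counts in 3 cells, 1 in each set, against 7029 counts in 64 arterial-marker cells. Sema3g was higher in arterial-marker cells in 3 of 3 sets, with a log2 fold change of 9.06 ± 1.09 (SE; edgeR adjusted p = 0.00889). The adjusted p ran from 1.45e-30 to 0.151 over 13 alternatives and was past the threshold in 8. It was 0.0514 without Young1, 0.128 without Young2 and 0.151 without AY_Y3, 0.0706 with cells left out above 500 CPM of another type's markers and 0.114 with markers taken at 50 CPM, and the log2 fold change stayed between 3.00 and 9.78 in all 13.

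Sema3g in capillary-marker cells, at 26.7, 13.3 and 17.1 CPM, lay between the other classes in every set. Arterial-marker cells were higher in 3 of 3 sets without overlap (log2 fold change 2.26 ± 0.79, edgeR adjusted p = 0.491; 0.00115 to 0.936 over alternatives, past the threshold in 2). Venous-marker cells were lower in 3 of 3 sets without overlap (log2 fold change −6.79 ± 0.99, edgeR adjusted p = 0.105; 2.21e-16 to 0.827, past the threshold in 2). Without the set as a block the venous over capillary p was 0.0289. Single cells weighed heavily in Young1: 1 cell gave 68.6% of its arterial counts and another 74.3% of its capillary counts. Without these cells the Young1 levels were 32.2 CPM in arterial-marker and 7.02 CPM in capillary-marker cells.

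Plxnd1, a plexin through which endothelial cells respond to class 3 semaphorins, was found in 19.4% of 635 cells (exact 95% interval 16.4 to 22.7), with a median of 41 CPM in those cells. Its share was 22.3 ± 3.51% in arterial-marker, 19.5 ± 1.58% in capillary-marker and 17% ± 5.30 in venous-marker cells (SD, n = 3 sets). The summed level was 12.7, 55.1 and 12.5 CPM in arterial-marker cells, against 19.2, 1.03 and 23.8 CPM in venous-marker cells. Capillary-marker cells had 12.9, 21.8 and 59.9 CPM. Young2 was high in arterial-marker and low in venous-marker cells and the other sets were not, so the order of the classes changed from set to set. Single cells gave 53.03% and 54.8% of the arterial counts in Young1 and AY_Y3. The log2 fold change was 1.01 ± 1.49 for arterial over venous, 0.07 ± 1.36 for arterial over capillary and −0.94 ± 1.32 for venous over capillary cells (edgeR adjusted p = 0.864, 0.997 and 1; no alternative was past the threshold). Without Young2 the first 2 turned, to −0.63 and −1.16.

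Unc5b, a netrin receptor that also binds FLRT proteins, was found in 22.4% of 635 cells (exact 95% interval 19.2 to 25.8), with a median of 254.3 CPM in those cells. Its share was 46.1 ± 13.5% in arterial-marker, 21% ± 4.72 in capillary-marker and 6.41 ± 2.92% in venous-marker cells (SD, n = 3 sets), and thinned 38.9 ± 11.8%, 16.9 ± 4.48% and 4.74 ± 2.4%. The summed level was 297, 263 and 183.02 CPM in arterial-marker cells, against 5.56, 20.4 and 35.4 CPM in venous-marker cells. The venous sums rested on 2, 2 and 4 cells and were 0.112, 6.09 and 13.4 CPM without the top cell of each set. In Young1 1 cell gave 44.7% of the arterial counts, and the level without it was 183.99 CPM. The groups did not overlap and arterial-marker cells were higher in 3 of 3 sets, with a log2 fold change of 3.59 ± 0.84 and an edgeR adjusted p of 0.108 (1.14e-07 to 0.551 over alternatives, past the threshold in 5, among them 0.0369 without the set as a block). Capillary-marker cells had 199.003, 127.98 and 48.7 CPM, which overlapped with the arterial sums and not with the venous ones. The log2 fold change was 1.05 ± 0.75 for arterial over capillary (edgeR adjusted p = 0.862; 0.0112 to 0.992, past with limma) and −2.53 ± 0.84 for venous over capillary cells (edgeR adjusted p = 0.803; 0.00259 to 1, past with DESeq2). Cells with both arterial markers had Unc5b at 661, 229.009 and 313 CPM and those with 1 at 128.9, 276 and 115.2 CPM.

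Robo4, an endothelial member of the Robo family associated with vessel stability, was found in 402 of 635 cells (63.3%, exact 95% interval 59.4 to 67.1), with a median of 350 CPM in those cells. Its share was 58.2 ± 15.6% in arterial-marker, 61.8 ± 8.53% in capillary-marker and 67.6 ± 6.97% in venous-marker cells (SD, n = 3 sets). The summed level was 302, 261.2 and 371 CPM in arterial-marker cells, against 253.5, 201.5 and 335 CPM in venous-marker cells. Capillary-marker cells had 223.3, 331 and 486 CPM. All classes overlapped, and AY_Y3 was the highest set in each of them. Within sets, arterial-marker cells were above venous-marker cells in 3 of 3 and above capillary-marker cells in 1 of 3. In Young1 1 cell gave 46.2% of the arterial counts, and the level without it was 182.2 CPM. That was below the 208.1 CPM of the venous-marker cells of Young1 without their top cell. The log2 fold change was 0.31 ± 0.23 for arterial over venous, −0.07 ± 0.23 for arterial over capillary and −0.38 ± 0.23 for venous over capillary cells (edgeR adjusted p = 0.691, 0.980 and 1; no alternative was past the threshold). Its SE of 0.23 was the smallest of the 8 genes in each comparison. With limma the first and the last of these turned, to −0.48 and 0.20. Leaving out Young2 or AY_Y3 turned the second, to 0.09 in both cases.

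Flrt2, a membrane protein that binds Unc5 receptors and latrophilins, was found in 18.1% of 635 cells (exact 95% interval 15.2 to 21.3), with a median of 154.4 CPM in those cells. Its share was 4.32 ± 0.0534% in arterial-marker, 11.7 ± 5.12% in capillary-marker and 48% ± 7.38 in venous-marker cells (SD, n = 3 sets). Thinned, the shares were 1.43 ± 1.24%, 9.17 ± 3.34% and 38.7 ± 4.65%. No count was found in 36 cells with both arterial markers, and 31 of 78 cells with 1 venous marker and 30 of 48 with both had one. The summed level was 0.192, 0.337 and 20.1 CPM in arterial-marker cells, against 146.7, 291 and 132.7 CPM in venous-marker cells. Arterial-marker cells were lower in 3 of 3 sets without overlap.

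The AY_Y3 value of Flrt2 in arterial-marker cells came from 1 cell, which held 518 of the 519 counts, and without it that level was 0.0408 CPM. This cell had Bmx at 13.3 CPM, just above the 10 CPM that made it an arterial-marker cell, Nr2f2 at 3.14 CPM and no count of Gkn3, Efnb2, Unc5b or Sema3g. With it included, the log2 fold change of Flrt2 was −6.36 ± 1.89 for arterial over venous cells (edgeR adjusted p = 0.218; 1.72e-05 to 0.568 over alternatives, past the threshold in 5). With a marker taken as present at 1 count the value was −8.58 and the adjusted p 0.00422, and at 50 CPM −9.04 and 0.00360. For arterial over capillary cells the log2 fold change was −3.69 ± 1.84 (edgeR adjusted p = 0.742), and at 1 count and at 50 CPM it was −6.17 and −6.75 with adjusted p of 0.0326 and 0.0184. Capillary-marker cells had 17.3, 58 and 24.8 CPM, below the venous sums in 3 of 3 sets without overlap (log2 fold change 2.67 ± 1.37 for venous over capillary, edgeR adjusted p = 1; 0.00116 to 1, past with limma). Venous-marker cells also had the most genes detected per cell, as given above, and the part of this in the share of cells with Flrt2 was not tested. The shares of Efnb2, Unc5b and Sema3g were lowest in the same cells, but these genes lay on the arterial side and so do not bear on this.

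**Figure D4:**
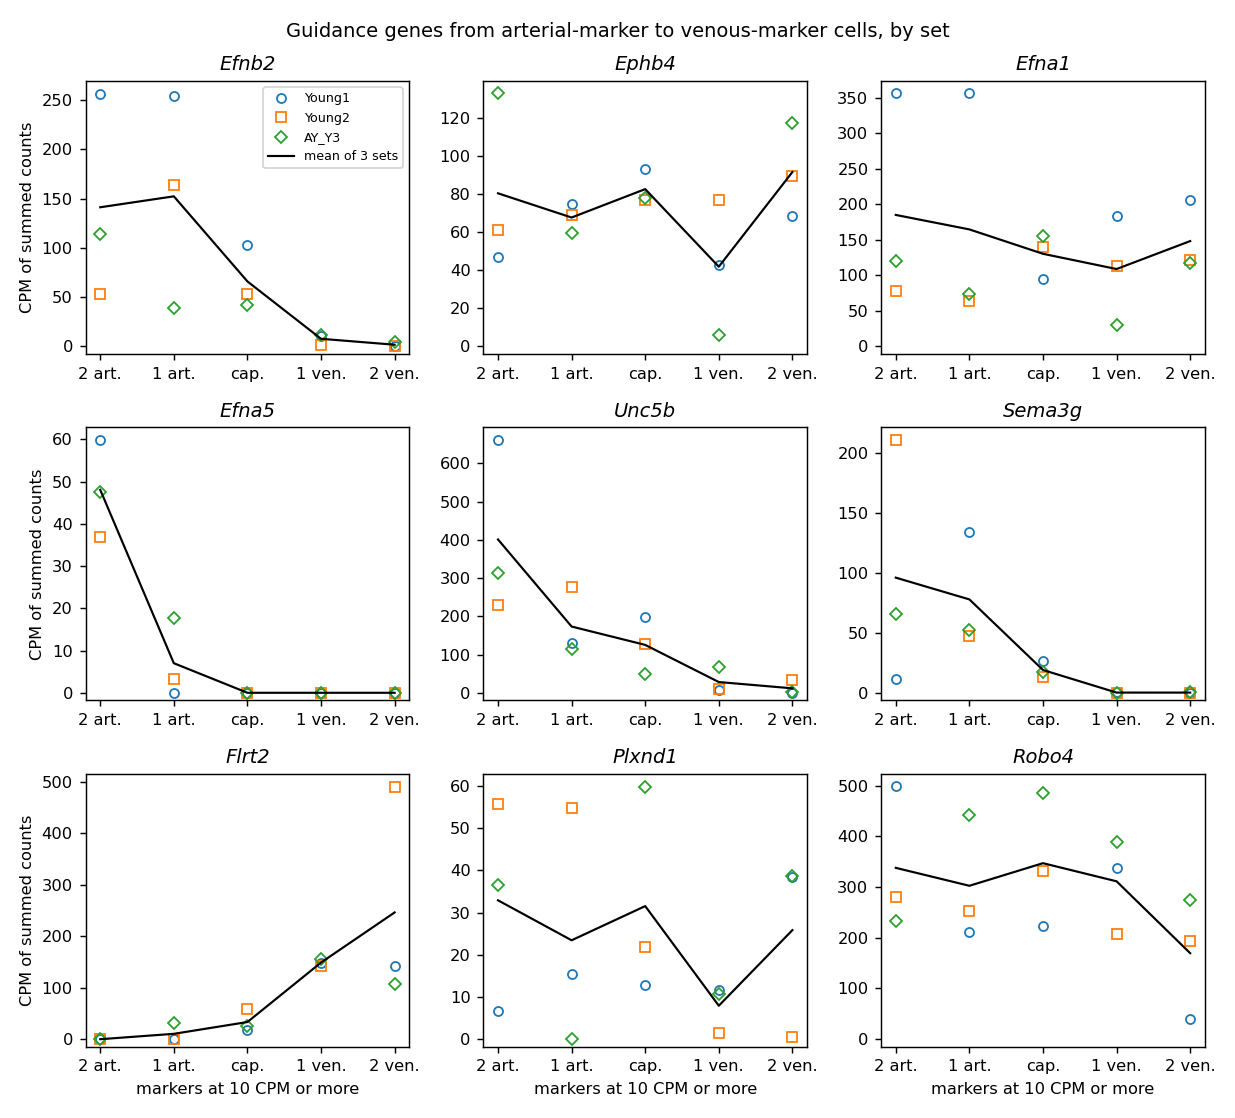
Level of each gene (y axis, CPM of counts summed per set) in cells with 2 or 1 arterial markers, capillary markers alone, and 1 or 2 venous markers (x axis); symbols are the 3 sets and the line their mean. Efna5 and Sema3g are at or near 0 in both venous steps and Flrt2 is at 0 in the step with 2 arterial markers, while Robo4, Efna1, Ephb4 and Plxnd1 have no steady slope.

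Along the 5 steps from 2 arterial markers (36 cells) through 1 arterial marker (80), capillary markers alone (366) and 1 venous marker (78) to 2 venous markers (48), the mean level of Unc5b was 401, 173.2, 125.2, 28.1 and 11.6 CPM. The SDs of the first 2 steps were 228.9 and 88.9 CPM, and the first step held 5 cells of Young1. The mean level of Sema3g was 96.2, 78, 19, 0.165 and 0.157 CPM. Its first 2 steps had SDs of 103.2 and 48.8 CPM, and Young1 was at 11.2 CPM in the first and 134.2 CPM in the second, so neither gene differed between the arterial steps beyond the spread between sets. The mean level of Efnb2 was 141.2, 152.3, 65.9, 7.67 and 1.66 CPM, so the 2 arterial steps did not differ beyond the spread between sets, of 104.5 and 108.3 CPM. That of Flrt2 was 0, 10.5, 33.4, 148.9 and 246.3 CPM, with an SD of 212.6 CPM in the last step because Young2 was at 491 CPM. The steps were drawn from the same markers as the classes and are a finer description of the same cells.

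Taken by single markers, Bmx and Gkn3, from which the classes were drawn, separated the genes much as the classes did. Sema3g was at 90.8, 94.9 and 48.1 CPM in the cells with Bmx, and its mean over sets was 14.2 CPM in the 510 without. With Gkn3 it was higher in 2 of 3 sets: in Young1 it was at 19.1 CPM with Gkn3 and 29.1 CPM without. Unc5b was at 624, 265 and 270 CPM in the 52 cells with Gkn3, with a mean of 105.2 CPM in the 583 without. Flrt2 had no count in a cell with Gkn3 at 10 CPM or more. It was at 98.6, 289 and 136.1 CPM in the 96 cells with Nr2f2 and at 175.7, 369 and 95.6 CPM in those with Il1r1, with means of 37.4 and 32.6 CPM in the cells without each. The capillary markers Cxcl12 and Rgcc, present in 553 and 429 cells, separated the genes less. Unc5b was higher with Cxcl12 in 3 of 3 sets. Efnb2 was lower with Rgcc in 3 of 3 sets, at 88.2, 27.5 and 40.3 CPM, against 118.7, 111.9 and 44.7 CPM without it. The difference in AY_Y3 was small.

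The 3 genes of the arterial side were found in the same cells more often than their shares over all classes give. Efnb2 and Unc5b had counts together in 58 cells, against 25.9 from the product of their shares. Efnb2 and Sema3g were together in 50 cells, against 20.8, and Unc5b and Sema3g in 55, against 25.5. Flrt2 was found with each of them less often, in 9 cells with Efnb2 against 21, in 11 with Unc5b against 25.7 and in 6 with Sema3g against 20.6. Thinned to 50000 counts, the ratio to the product was above 1 in 3 of 3 sets for the first 3 pairs and below 1 in 3 of 3 sets for the 3 pairs with Flrt2. Of 36 pairs described in this way, the pair Efnb2 and Ephb4 was among those nearest to 1, at 0.997 over all sets when thinned. These are descriptions with no test, and the pairs share cells, sets and depth. The product was taken over all classes together, so genes that differ between classes depart from it by construction. No product within classes was computed for these pairs.

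**Figure D5:**
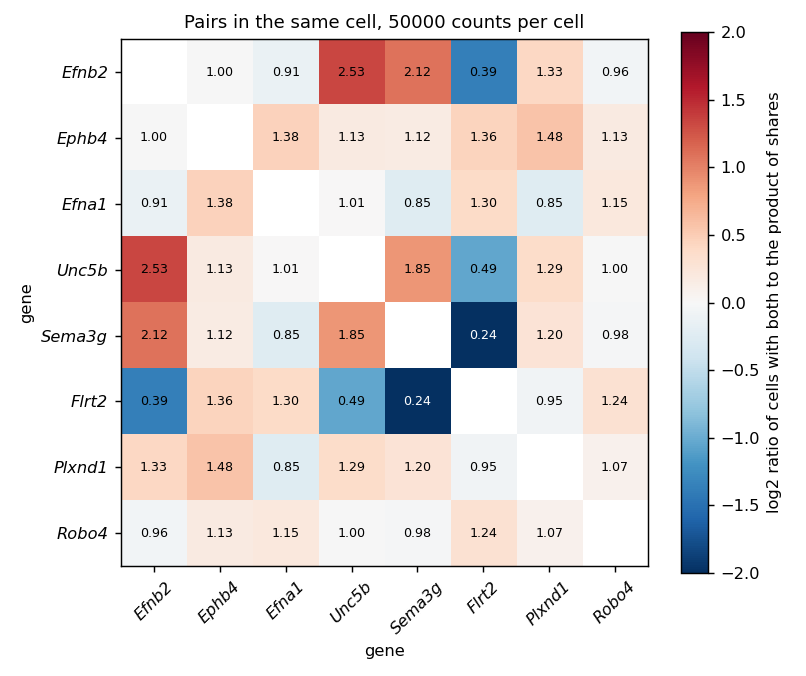
Ratio of the cells with counts of both genes to the product of their shares, for each pair of 8 genes (both axes) in cells thinned to 50000 counts; the colour is the log2 of the printed ratio. Efnb2, Unc5b and Sema3g form warm squares with each other, with ratios of 2.53, 2.12 and 1.85, and cool ones with Flrt2, at 0.39, 0.49 and 0.24, while Efnb2 with Ephb4 is at 1.0.

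A wider list of 84 guidance genes, which includes the 9, had 76 symbols in the table, 69 with a count in the cells kept and 31 that could be tested. Between arterial-marker and venous-marker cells 1 of the 31 was higher (Sema3g) and 2 were lower by the edgeR test, against 1.02% and 0.75% of all genes. In each of the comparisons with capillary-marker cells 0 of 31 passed, with 5 at an unadjusted p under 0.05 for arterial and 4 for venous cells, against 7.51% and 4.67% of all genes. The median log2 fold change of the 31 was −0.48 for arterial over venous cells, −0.20 for arterial over capillary and −0.05 for venous over capillary cells, against −0.05, −0.07 and −0.02 over all genes tested. By family, 4 ephrins, 4 Eph receptors, 7 semaphorins, 4 plexins and neuropilins, 5 netrin and RGM genes with their receptors, 3 genes of the Slit and Robo group and 4 FLRT and latrophilin genes were tested. All 4 of the last family had a negative fold change for arterial over venous cells, as had 52.9% of all genes, and 2 passed the test.

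The 2 that were lower are receptors of the adhesion class. Adgrl2, a latrophilin, was at 9.27, 24.6 and 14 CPM in arterial-marker cells, against 80.1, 113.6 and 98.5 CPM in venous-marker cells, lower in 3 of 3 sets (log2 fold change −2.64 ± 0.44, edgeR adjusted p = 0.0323; 4.68e-09 to 0.357 over alternatives). Without Young1, Young2 or AY_Y3 its adjusted p was 0.135, 0.263 and 0.357, and it also missed the threshold with cells left out above 500 CPM (0.354), markers at 50 CPM (0.181) or no filter (0.0834). Adgrl4, an orphan adhesion receptor of endothelial cells, was at 249.7, 611 and 633 CPM in arterial-marker cells, against 639, 1002 and 1108 CPM in venous-marker cells. It was lower within each of 3 sets (log2 fold change −0.90 ± 0.17, edgeR adjusted p = 0.0474; 1.68e-06 to 0.380). Without each set in the same order its adjusted p was 0.116, 0.307 and 0.308. The call rested on the set as a block, with an adjusted p of 0.380 without it, and was lost too with no filter (0.113), no cell left out (0.0803), cells left out above 500 CPM (0.0533) and markers at 50 CPM (0.234). Capillary-marker cells had 56.9, 69.8 and 88.2 CPM of Adgrl2 and 661, 1019 and 939 CPM of Adgrl4.

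Other genes of the list had wide differences that did not pass. Nrp2, a neuropilin known from veins and lymphatics, was at 0, 0 and 19.5 CPM in arterial-marker cells, against 83.9, 73.5 and 77.3 CPM in venous-marker cells (edgeR adjusted p = 0.485; 0.000649 to 0.774 over alternatives). In capillary-marker cells it was at 3.98, 37.4 and 17.9 CPM. Sema6b, a transmembrane semaphorin, was at 0.0480, 3.06 and 0.853 CPM in arterial-marker cells, against 13, 14.4 and 11.1 CPM in venous-marker cells (edgeR adjusted p = 0.300; 0.00406 to 0.751). Ntn4, a netrin of basement membranes, was at 12.1, 3.92 and 6.94 CPM in arterial-marker cells, against 0.376, 0.503 and 0.892 CPM in venous-marker cells (edgeR adjusted p = 0.119; 0.000136 to 0.742). The groups of these 3, which were named for their extreme fold changes, did not overlap. Of the 31 genes tested, 5 lay above and 7 below without overlap between arterial-marker and venous-marker cells. Of all genes, 17.3% did not overlap in 1 direction or the other. Ntn1, a ligand of Unc5 receptors, was at 15.8, 94.4 and 64.4 CPM in venous-marker cells, against 10.7, 45.1 and 0.136 CPM in capillary-marker cells (edgeR adjusted p = 1; 0.0270 to 1). Sema6d, another transmembrane semaphorin, was at 27.3, 3.15 and 0 CPM in venous-marker cells, against 33.7, 22.5 and 28.9 CPM in capillary-marker cells (edgeR adjusted p = 1; 0.491 to 1). Efna3 was at 2.98, 0.45 and 0.111 CPM in venous-marker cells, against 3.94, 2.73 and 1.5 CPM in capillary-marker cells. Neo1, the receptor neogenin, was at 24.2, 5.91 and 18.5 CPM in arterial-marker cells, against 2.97, 12.7 and 15.5 CPM in capillary-marker cells, and both of these pairs overlapped.

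The genes most like each of the 9 over single cells were sought among 3959 genes found in 20% or more of the cells kept, by Spearman's rho within each set, averaged over the 3 sets. Ccnd2, a cyclin, was nearest to Sema3g (0.46) and Efnb2 (0.38). Bmx came next for Sema3g (0.41), Efnb2 (0.33) and Efna5 (0.21), after Stmn2 (0.41) for Sema3g, Alpl (0.33) for Efnb2 and Mgp (0.24) and Smad6 (0.21) for Efna5. Unc5b had Stmn2 (0.30), Alpl (0.30) and Timp3 (0.29). Flrt2 had Ndnf (0.42) and Tmsb10 (0.41). The markers Gkn3, Nr2f2 and Il1r1 were found in fewer than 20% of the cells kept and so were not among the genes searched. The mean rho of Flrt2 was 0.42 with Nr2f2 and 0.36 with Il1r1, and that of Sema3g with Gkn3 was 0.34. No gene reached 0.23 for the remaining genes: the nearest was Pdlim5 (0.21) for Ephb4, Hivep1 (0.17) for Efna1, Hbegf (0.20) for Plxnd1 and Sparc (0.22) for Robo4. Cells share depth and set, and in counts this sparse the low values are no finding.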

How the data were processed

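The values were whole-number read counts per gene symbol as the authors deposited them, 20607 symbols by 745 cells, with no normalization and no molecular identifiers. Bowtie 0.12.2 and the builds mm8 and mm10 are named in the submitters' processing notes, with no role for either. The sources used here do not name the counting tool, the annotation or the use of strand, so reads of overlapping genes cannot be told apart. A cell held 52819 to 2421434 counts, and identical counts were found for no 2 cells.

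CPM were computed per cell, or from counts summed per set and class. Cells with over 2000 CPM of summed markers of another cell type were left out, and no doublet caller was run. Cells are not replicates, so counts were summed per set and class. The 9 sums held 23 to 130 cells each and 17947001 to 107229670 counts. The quasi-likelihood model of edgeR 4.0.16 in R 4.3.3 was fitted to them with TMM scaling and a block for the set, which left 4 residual degrees of freedom. Genes kept by filterByExpr at its defaults and found in 5% of cells or more were tested, without the 6 class markers, 8930 in all. Each contrast had Benjamini-Hochberg adjustment over these and was read at 0.05. The SE printed with an edgeR fold change is its absolute value divided by the square root of the quasi-likelihood F statistic. Every class came from every set, hence the block. Deviations of the sums of the same set from the class means correlated at 0.00126 to 0.0529. The classes were drawn from the same cells, so genes that vary with the markers differ between them by construction.

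Alternatives were DESeq2 1.42.0, RLE library sizes, limma 3.58.1 on mean log2(CPM + 1), no filter, no block, each set left out, markers at 1 count or 50 CPM, no cells left out or those above 500 CPM, and cells thinned to 50000 counts. Descriptions used scipy 1.17.1, pandas 2.3.3 and numpy 2.4.6 in Python 3.11.15, with exact Clopper-Pearson intervals. The fit was tested on counts simulated with known fold changes from its own estimates of spread. These counts held no difference between sets and no single cells, so they do not cover sums that rest on 1 cell. The 9 genes, the wider list and the tests were chosen with earlier results of these data known. The text names the 9 genes, the genes of the wider list that passed the test, the 2 with the highest and the 2 with the lowest log2 fold change in each contrast, up to 3 genes of most similar pattern for each of the 9 (1 of them is not reported here), and the 6 markers. Promoter windows are RefSeq's for GRCm38.p6, used for their letters and not for counting, and gene overlaps come from the GENCODE annotation of GRCm38.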

Additional observations from a re-analysis of the deposited data

How the results depend on the processing

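The share of genes past the threshold moved widely with the tool. In the order arterial over capillary, venous over capillary and arterial over venous, edgeR called 0.291%, 0.0784% and 1.77% of the genes tested, DESeq2 6.07%, 2.64% and 10.9%, and limma 4.29%, 2.95% and 9.17%. With cells thinned edgeR called 1.47%, 0.12% and 3.73%, without the filter on low counts 0.0413%, 0.0207% and 0.506%, with cells left out above 500 CPM 0.0459%, 0.0115% and 0.849%, and with markers at 50 CPM 0.214%, 0.045% and 1.17%. Leaving out 1 set gave 0 to 0.123%, 0 to 0.112% and 0 to 1.03%; leaving out Young2 or AY_Y3 gave 0 genes for both comparisons with capillary cells. Without the replicate block the shares were 0.28%, 0.19% and 1.85%. That fit also brought Efnb2 and Unc5b in arterial over venous cells and Sema3g in venous over capillary cells past the threshold, and changed no other call among the 9 genes. Over all genes tested, deviations of same-set sums hardly correlated, as given above. This does not hold for each gene: Robo4 was highest in AY_Y3 and Adgrl4 lowest in Young1 in every class.

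The mean ratio of cells with Efnb2 and Ephb4 to the product of their shares lay between 1.02 and 1.17 in the 7 alternatives tried. Of 312 values of the 8 tested genes under alternatives, 81.7% kept direction and call, 27 passed the threshold newly, 5 no longer passed and 25 turned direction. The 5 were Sema3g between arterial and venous cells, and no value that turned had passed the test. For arterial over capillary cells Ephb4 turned to 0.045 (thinned), 0.045 (limma) and 0.55 (markers at 50 CPM). Efna1 turned there to −0.23 (cells left out above 500 CPM), −0.092 (markers at 1 count) and −0.059 (no filter), and ranged from −0.90 without Young1 to 0.55 without AY_Y3. Plxnd1 turned to −0.25 (thinned), −0.10 (markers at 1 count), −0.038 (markers at 50 CPM), −0.54 (no cell left out), −0.0013 (no filter) and −0.24 (no replicate block), and ranged from −1.16 without Young2 to 1.01 without AY_Y3. Robo4 ranged from −0.36 without Young1 to 0.093 without Young2. For venous over capillary cells limma turned Ephb4 to 0.62, Efna1 to 0.38 and Robo4 to 0.20, and Efna1 ranged from −0.66 without Young1 to 0.20 without AY_Y3. For arterial over venous cells limma turned Ephb4 to −0.57 and Robo4 to −0.48, and markers at 50 CPM turned Robo4 to −0.33. Efna1 ranged there from −0.25 without Young1 to 0.79 without Young2, and Plxnd1 from −0.63 without Young2 to 2.52 without Young1. The cause was not tested. Without the filter the median over all genes moved to −0.34, −0.22 and −0.10, against −0.07, −0.02 and −0.05. Thinning lowered the share of cells with a count by more than the spread between sets for 4 of the 9 genes.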
